A study of Mus musculus with 46 samples.

Results

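Cathepsins are the main proteases of the lysosome, and cystatin F, the product of Cst7, is an inhibitor that meets them inside that compartment. The 9 cathepsin genes Ctsb, Ctsc, Ctsd, Ctsh, Ctsk, Ctsl, Ctss, Ctsw and Ctsz and the gene Cst7 were taken by symbol from the 48795 genes of the expression table, and all 10 passed the filter on low values in every comparison. RNA was sequenced from 46 samples of bulk material in 8 groups. MC-38, a mouse colon carcinoma line, was sampled as 3 cultures, and the other 43 samples were MC-38 tumors grown under the skin of female C57BL/6NTac mice that were 8 to 10 weeks old. Another 3 tumors were labelled baseline, a group whose genotype, treatment and day the methods do not state. WT mice given an isotype control antibody or the PD-1 antibody (PD-1 Ab) muDX400 at 5 mg/kg gave 5 tumors per arm after 1 dose (label day 4, day 11 after implant) and 5 per arm after 2 doses (label day 8, day 15 after implant). The last 2 groups, of 10 tumors each, were labelled PD-1cKO and WT at 28 days. A table and a figure legend of the paper also give 28 days after implant, whereas its methods place them at day 22. PD-1cKO mice carry Pdcd1 alleles with exons 2 and 3 floxed and a creERT2 at Rosa26, which is active in all tissues and so not limited to T cells. Both those mice and their WT littermates received tamoxifen at 40 mg/kg on 5 consecutive days, so the WT tumors of that experiment carry the tamoxifen as well.

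Most members are cysteine proteases. Ctsb, Ctsl and Ctsz cleave proteins broadly or trim their ends, Ctsh is an aminopeptidase, and Ctsd is an aspartic protease found in most lysosomes. Ctss removes the invariant chain from MHC class II in antigen-presenting cells. Ctsk is a collagenase best known from osteoclasts and also made by fibroblasts. Ctsw is a cathepsin of cytotoxic T cells and NK cells. Ctsc removes dipeptides from the ends of granzymes and neutrophil serine proteases and so turns them into active enzymes, and cystatin F, made by cytotoxic lymphocytes and myeloid cells, inhibits Ctsc.

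Values are FPKM, fragment counts divided by transcript length and library total, so they can be set beside each other between genes. FPKM hold no read depth, so the standard errors (SE) and p-values given rest on the spread between samples. Nothing states that samples with the same number were paired. In the tamoxifen experiment, short noncoding RNAs held 30.2% to 66.5% of the summed FPKM, against at most 0.0746% in all other samples. In isotype control tumor 1 of day 11, mitochondrial genes held 54.6% of the FPKM (7.65% or less elsewhere). That library and the tumors labelled PD-1cKO 4 and 8 were the 3 whose correlation with the median of their group fell under 0.95. The targeted gene Pdcd1 had 5.05 to 19.9 FPKM (median 8.29) in tumors labelled PD-1cKO and 1.71 to 7.02 (median 3.01) in WT tumors. A value over the whole gene also counts exons outside the deletion, so this does not check the label. Sample identifiers in the labels fall into number runs whose meaning is not stated. Tumors labelled PD-1cKO 1 to 7 stand in a run with no WT tumor, tumor 8 in a run with 9 WT tumors, and tumors 9 and 10 in a run with 1 WT tumor.

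Promoter windows from 250 bases before to 50 after the RefSeq start (GRCm38.p6) were found for 7 members, Cst7, Ctsz, Ctsk, Ctss, Ctsc, Ctsd and Ctsl. Ctsb, Ctsh and Ctsw had no entry. The windows of Ctss, Ctsc and Ctsd are shown. Ctss had the highest mean FPKM of the cathepsins in PD-1 Ab-treated tumors, and Ctsd in tumors labelled PD-1cKO. In the latter the medians of Ctsd and Ctss were close, at 745 and 703 FPKM. Ctsc is shown because its fold changes in the 2 experiments lay furthest apart. Motifs were searched on both strands and are in capitals. They were CACGTG (the E-box at the core of the lysosomal CLEAR element), a pair of GAAA with 2 bases of any kind between them (the core of the interferon-stimulated response element), TTCNNNGAA (the gamma-activated sequence) and GAGGAAGT (a site of PU.1 and other ETS factors, here read on the opposite strand as ACTTCCTC). The window of Ctss is chr3:95526536-95526835 on the plus strand, that of Ctsc chr7:88277835-88278134 on the plus strand, and that of Ctsd chr7:142387778-142388077 on the minus strand.
Ctss: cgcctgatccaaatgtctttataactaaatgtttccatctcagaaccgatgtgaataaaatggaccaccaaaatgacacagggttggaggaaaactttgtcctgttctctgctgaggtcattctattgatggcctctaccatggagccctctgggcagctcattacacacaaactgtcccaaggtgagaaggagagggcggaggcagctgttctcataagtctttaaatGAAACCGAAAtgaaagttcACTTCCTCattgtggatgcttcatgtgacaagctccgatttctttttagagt
Ctsc: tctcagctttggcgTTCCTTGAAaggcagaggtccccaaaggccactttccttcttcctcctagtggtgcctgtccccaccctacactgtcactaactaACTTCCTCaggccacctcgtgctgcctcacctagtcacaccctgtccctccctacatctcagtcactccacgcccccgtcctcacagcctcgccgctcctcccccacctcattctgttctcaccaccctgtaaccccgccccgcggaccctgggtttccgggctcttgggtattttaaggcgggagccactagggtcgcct
Ctsd: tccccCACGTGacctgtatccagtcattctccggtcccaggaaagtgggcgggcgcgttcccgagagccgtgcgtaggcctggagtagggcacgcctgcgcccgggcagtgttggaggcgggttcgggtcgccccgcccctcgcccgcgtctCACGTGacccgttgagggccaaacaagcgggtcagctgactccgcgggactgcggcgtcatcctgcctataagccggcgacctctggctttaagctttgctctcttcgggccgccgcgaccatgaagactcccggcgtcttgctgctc
Ctss held 1 interferon-stimulated element core, present in 3.44% of the 32851 promoters searched, and 1 PU.1 site, present in 3.20%. Ctsc held 1 PU.1 site and 1 gamma-activated sequence, which 8.30% of promoters hold. Ctsd held 2 copies of CACGTG, and Ctsl held 1. The hexamer is present in 7.15% of promoters. These matches are descriptions of the letters and not evidence of binding.

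Cultured MC-38 cells held a few of the cathepsins at high levels and almost none of the others. Ctsl, at 323, 320 and 334 FPKM in the 3 cultures, was the most abundant, and Ctsd had 120.5, 118 and 113. Ctsb had 88.3, 87.8 and 86.2 FPKM, Ctsz 92.2, 91.6 and 90.6, and Ctsh 19.0, 19.6 and 19.9. These 5 genes were well expressed in cells free of any host tissue, and their cultures lay within a narrow range. Ctss was at 0.133, 0.139 and 0.138 FPKM, Ctsc at 0.174, 0.170 and 0.272, and Ctsk at 0.120, 0.124 and 0.0992. Ctsw was at 0.0293, 0 and 0.152 FPKM, and Cst7 was listed at 0 in all 3 cultures. Ctss, Ctsc, Ctsk, Ctsw and Cst7 were thus at or near 0 in the cultures. Of 12 macrophage and monocyte markers, Adgre1, Itgam, C1qa, C1qb and C1qc were at 0 in all cultures, and the 12 summed to 6.17 to 6.72 FPKM. The 12 T and NK cell markers summed to 1.16 to 1.43 FPKM, with Cd3d, Cd3e and Cd3g at 0. A mean of 0.5 FPKM in culture was reached by 2 macrophage and monocyte markers, 1 T and NK cell marker and 7 of 9 fibroblast markers.

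**Figure D1:**
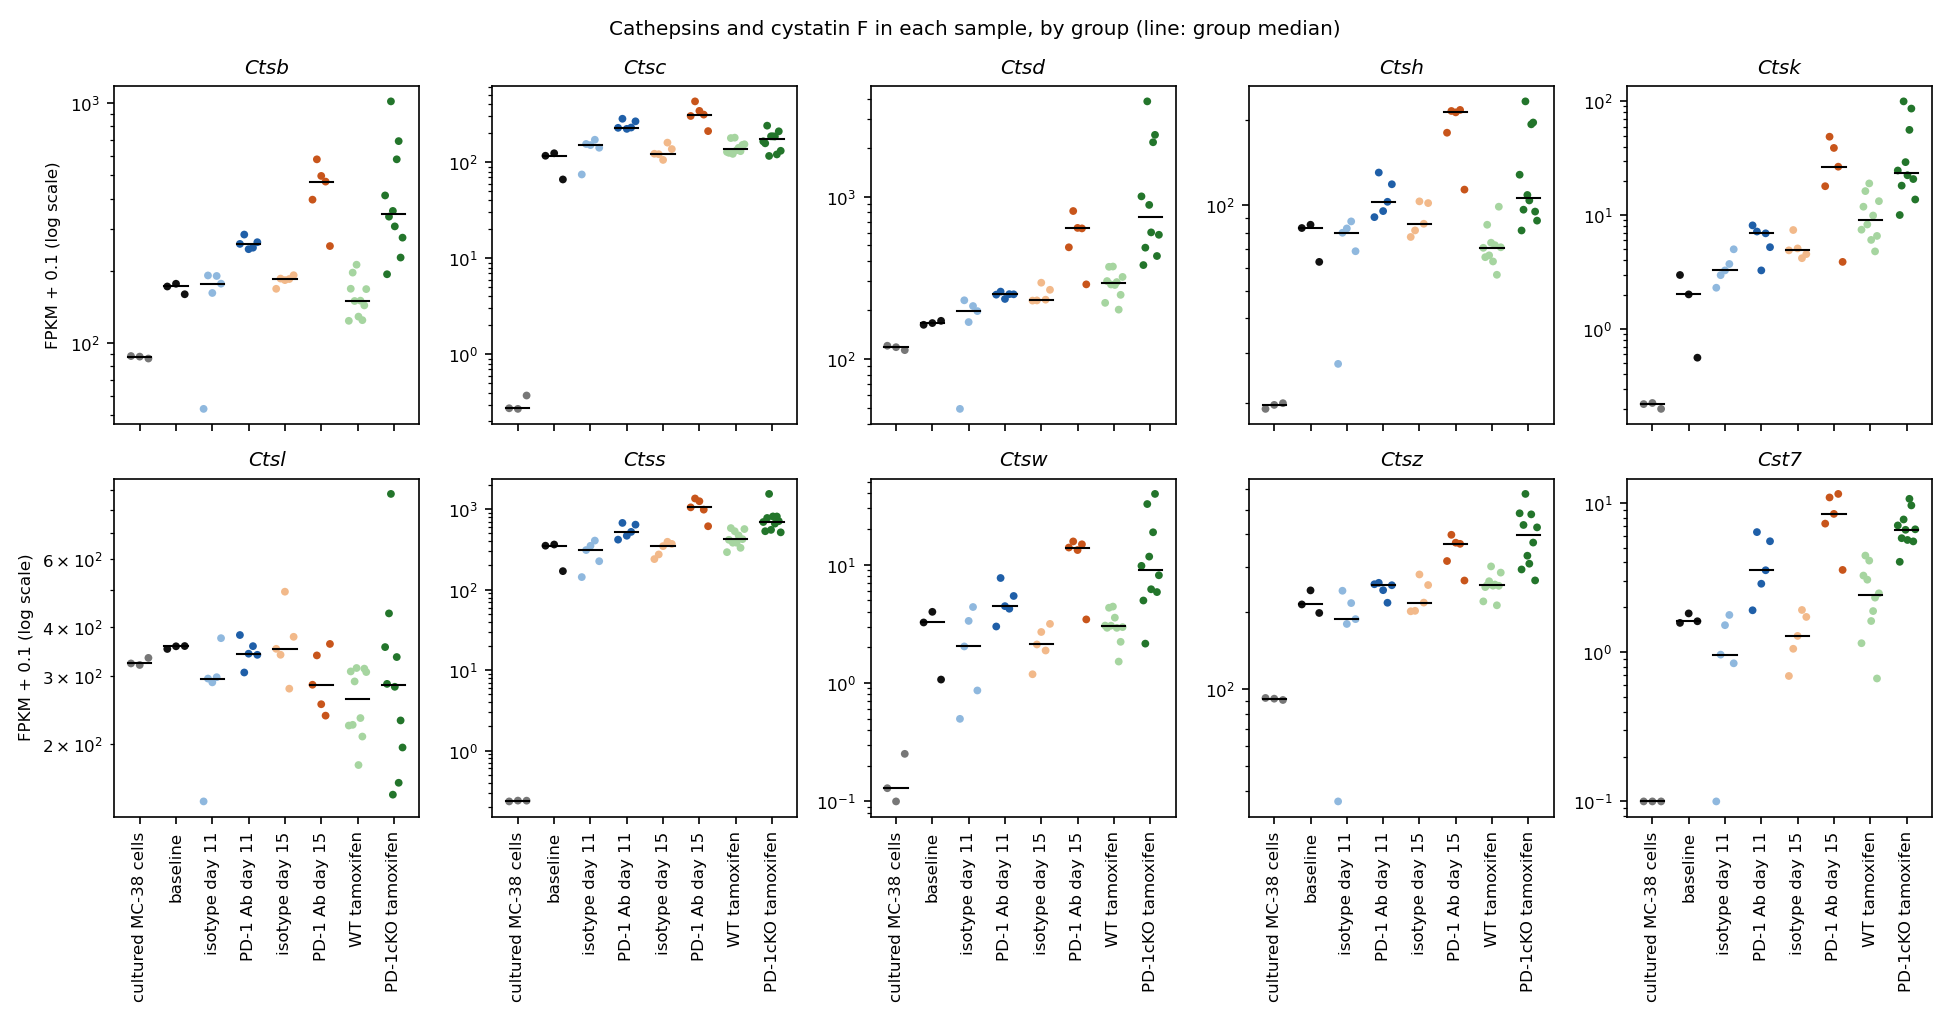
FPKM on a log axis of the 10 genes in each of the 46 samples, 1 panel per gene, with 1 column of points per group and a bar at the median. Ctsl keeps a similar level from culture to tumor, whereas Ctss goes from at most 0.139 FPKM in culture to 143 FPKM or more in every tumor.

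In tumors, 9 of the 10 genes were higher than in culture. The isotype control tumors of day 15 were the group compared, and the same samples serve as the control of the PD-1 Ab comparison of day 15. By limma on log2(FPKM + 0.1), with Benjamini-Hochberg adjustment and a limit of 0.01, 37% of the 15199 genes tested were called and 20.2% were called higher. The largest log2 fold changes were those of Ctss, 10.40 (SE 0.16, adjusted p = 4.63e-10), and Ctsc, 8.73 (SE 0.16, adjusted p = 7.35e-10). Both genes are known for their roles in antigen-presenting and other blood cells. Ctsk was higher by 4.58 (SE 0.21, adjusted p = 1.43e-07) and Ctsw by 3.82 (SE 0.39, adjusted p = 4.36e-05) on the log2 scale. Ctsh, Ctsz, Ctsd and Ctsb, which the cultures also expressed, were higher by 2.19, 1.32, 1.09 and 1.06. Cst7 passed the same test, and no fold is given against a group listed at 0. Ctsl was the exception, with a log2 fold change of 0.15 (95% interval -0.21 to 0.52, adjusted p = 0.440). The 9 genes called also had every tumor above every culture, as had 26.3% of all genes. Ctss, Ctsc, Ctsk, Ctsw and Cst7 were under 0.5 FPKM in culture and passed the filter on low values through the tumors alone, so their difference from culture was partly fixed by the filter. With no filter, 9 members were called as well. In bulk tissue, more cells of a type and more RNA per cell cannot be told apart. In these tumors the macrophage markers summed to 822 to 1289 FPKM and the T and NK cell markers to 13.7 to 30.4, and 9 fibroblast markers summed to 1086 to 2649 FPKM against 122 to 126 in culture. Called higher were 12 of 12 macrophage, 9 of 10 T and NK cell, 8 of 9 fibroblast, 5 of 5 endothelial, 4 of 4 neutrophil and 4 of 4 adipocyte markers tested, many of which passed the filter through the tumors alone. Their part in the result was not tested.

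The composition of the cathepsin pool therefore differed between culture and tumor. Ctsl made up a mean of 50.7% of the summed FPKM of the 9 cathepsins in culture, 23.2% in isotype control tumors of day 15 and 9.74% in PD-1 Ab-treated tumors of that day. Ctss went from 0.0213% in culture to 20.5% in the isotype control tumors and 32.2% after PD-1 Ab. The ratio of Ctss to Ctsl, which does not depend on how a sample is scaled, had a median of 0.807 (0.682 to 1.42) in isotype control tumors of day 15 and 4.02 (1.70 to 4.97) in PD-1 Ab-treated tumors. These ranges did not overlap. In the tamoxifen experiment the ratio had a median of 1.64 (1.31 to 2.60) in WT tumors and 2.31 (1.76 to 5.11) in tumors labelled PD-1cKO, and the ranges overlapped. The share of Ctsd in tumors labelled PD-1cKO averaged 31.1% and ran from 17.1% to 49.1%, while its mean was between 12.2% and 18.3% in the other 7 groups. The summed FPKM of the 9 cathepsins averaged 642 in culture, 1584 in isotype control tumors of day 15, 3255 after PD-1 Ab, 1630 in WT tumors and 3562 in tumors labelled PD-1cKO. In the last group the sums ran from 1937 to 8360 with a median of 2728, and the median after PD-1 Ab was 3273. The antibody and tamoxifen experiments differ in their share of short noncoding RNA, so sums are not set against each other between them.

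**Figure D2:**
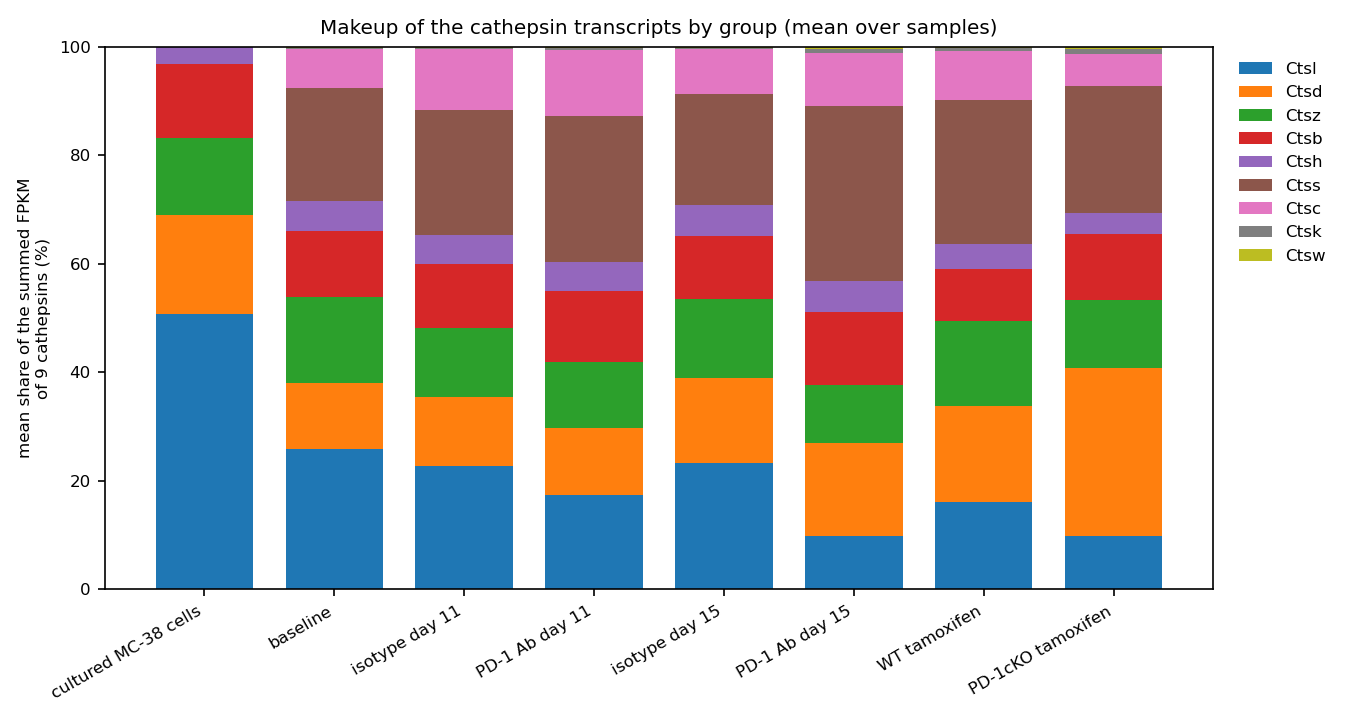
Mean share in percent of each of the 9 cathepsins in their summed FPKM, 1 stacked bar per group. Ctsl takes 50.7% of the pool in culture and 9.74% in PD-1 Ab-treated tumors of day 15, and Ctsd takes 31.1% in tumors labelled PD-1cKO.

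After 2 doses of PD-1 Ab, 7 of the 10 genes were higher than in isotype control tumors, against 6.69% of the 15062 genes tested that were called higher and 8.25% called in either direction. The 7 were Cst7, Ctsw, Ctss, Ctsc, Ctsb, Ctsd and Ctsh, all by more than 2-fold, as were 5.03% of genes. The members' median log2 fold change was 1.25 against -0.04 over all genes. Cst7, the inhibitor, had 0.594, 0.956, 1.19, 1.82 and 1.63 FPKM in isotype control tumors and 7.19, 10.8, 8.37, 11.4 and 3.47 in PD-1 Ab-treated tumors. Every treated tumor exceeded every control, and the log2 fold change was 2.62 (SE 0.35, adjusted p = 0.00106, limma). Ctsc, the peptidase that cystatin F inhibits, had 122, 121, 106, 160 and 137 FPKM in controls and 303, 430, 342, 313 and 211 after PD-1 Ab. Its groups did not overlap either, and it rose by 1.28 (SE 0.17, adjusted p = 0.00106). The inhibitor and its target thus both rose.

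Ctsw, the lymphocyte cathepsin, had 1.09, 2.02, 2.60, 1.78 and 3.06 FPKM in isotype control tumors and 13.8, 15.6, 13.2, 14.7 and 3.34 in PD-1 Ab-treated tumors. The treated tumors were all above the controls, but tumor 5 was close to the highest control, and the log2 fold change was 2.37 (SE 0.41, adjusted p = 0.00293). Ctss, the class II protease, had 240.2, 274, 348, 394 and 371 FPKM in controls and 1056, 1362, 1259, 989 and 615 after PD-1 Ab. It did not overlap and rose by 1.67 (SE 0.21, adjusted p = 0.000969), which made it the most abundant cathepsin of these tumors. Ctsb had 168, 186, 183, 185 and 192 FPKM in controls and 396, 583, 497, 471 and 254 after PD-1 Ab, a rise of 1.22 (SE 0.18, adjusted p = 0.00165). Ctsh rose by 1.03 (SE 0.18, adjusted p = 0.00265), from 77.3 to 103 FPKM in controls to 114 to 217 after treatment. Both were without overlap, so 6 of the 10 genes had all treated tumors above all controls, as had 9.23% of all genes.

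Ctsd, the aspartic protease, had 229, 229, 295, 232 and 266.5 FPKM in isotype control tumors and 487, 814, 641, 636 and 288 after PD-1 Ab. It was above every control in 4 of 5 treated tumors and rose 2.18-fold (SE of the log2 fold change 0.23, adjusted p = 0.00673). The collagenase Ctsk had 4.81, 7.31, 5.01, 4.09 and 4.45 FPKM in controls and 17.9, 48.8, 38.8, 26.6 and 3.79 after treatment. Tumor 5 lay below all controls, and the log2 fold change of 1.99 (SE 0.55, adjusted p = 0.0241) did not pass. Ctsz had a log2 fold change of 0.57 (SE 0.14, adjusted p = 0.0128), with 201 to 279 FPKM in controls and 264.5 to 398.5 after treatment. Ctsl, the main cathepsin of the cultures, had 352, 340, 494, 278 and 378 FPKM in controls and 284.5, 338.5, 253.5, 237 and 362 after PD-1 Ab. Its groups overlapped, with a log2 fold change of -0.31 (95% interval -0.67 to 0.04, adjusted p = 0.173).

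PD-1 Ab-treated tumor 5 was the lowest of its group for 9 of the 10 genes and the highest for Ctsl. It also had the lowest summed macrophage markers (1508.9 FPKM against a group median of 3068) and T and NK cell markers (58.2 against 148). In controls these sums were 822 to 1289 and 13.7 to 30.4 FPKM. Of 12 markers each, 9 macrophage and 9 T and NK cell markers were called higher at day 15, against 6.69% of all genes. In controls, 10 of the 12 T and NK cell markers reached a mean of 0.5 FPKM. The others passed the filter through treated tumors alone. Sums of other markers differed too. Their medians in controls and treated tumors were 60.2 and 288 FPKM for adipocyte, 5.99 and 42.6 for epithelial and 23.2 and 67.4 for endothelial markers. Called higher were 1 of 5 adipocyte, 0 of 6 epithelial and 1 of 5 endothelial markers tested. The part of these markers in the rises was not tested. Without tumor 5, Ctsk (2.59, adjusted p = 6.55e-05) and Ctsz (0.66, adjusted p = 0.00259) passed too, and 9 genes were called. Without PD-1 Ab-treated tumor 3 only 4 were called, since Ctsd (adjusted p = 0.0233), Ctsh (0.0106) and Ctsw (0.0113) missed the limit. The calls over all genes also fell there, to 421 of 15058 from 1243. The call of Ctsd was lost when any tumor other than PD-1 Ab-treated tumor 5 was left out (adjusted p of 0.0101 to 0.0233, log2 fold changes of 0.97 to 1.18), and that of Ctsw without PD-1 Ab-treated tumor 1 (0.0101) or 2 (0.0108). Without isotype control tumor 3, Ctsz passed (0.64, adjusted p = 0.00831). The call of Ctsd was also lost with median-of-ratios (adjusted p = 0.0101) and upper-quartile scaling (0.0116), and with all tumors in 1 fit (0.0873), in which Ctsk passed (0.00898). With no filter both Ctsd (0.0202) and Ctsw (0.0108) missed the limit.

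**Figure D3:**
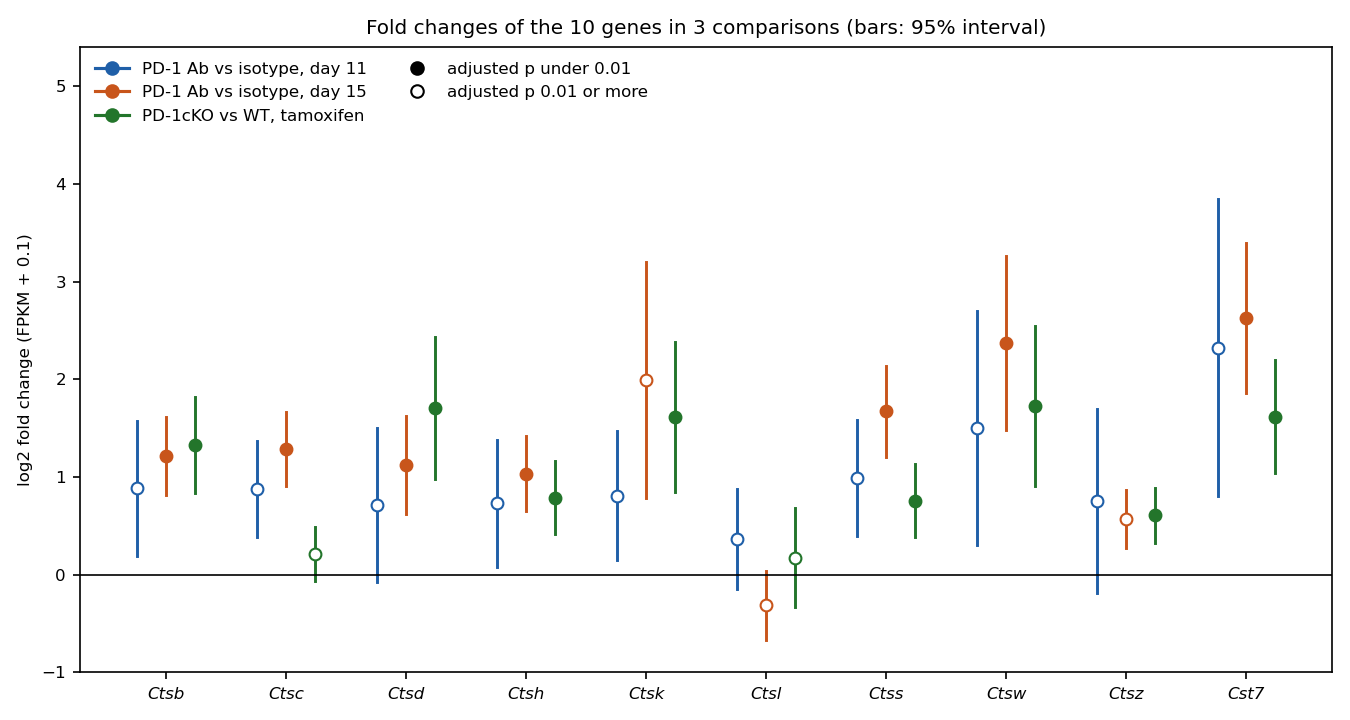
Log2 fold changes of the 10 genes with their 95% intervals in 3 comparisons, those of PD-1 Ab after 1 and 2 doses and that of tumors labelled PD-1cKO, from limma on log2(FPKM + 0.1). Ctsc lies at 1.28 for PD-1 Ab at day 15 and at 0.21 for PD-1cKO, and the interval of Ctsl crosses 0 in all 3.

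After 1 dose, at day 11, none of the 10 genes was called by limma, and none of the 14556 genes tested was (0%). An unadjusted p under 0.05 was reached by 7 members and 895 of all genes. The log2 fold changes ran from 0.37 for Ctsl to 2.32 for Cst7, with a member median of 0.84. The median over all genes, 0.26, was at -0.04 without isotype control tumor 1 and at 0.01 with median-of-ratios scaling. Cst7 had 0, 0.864, 1.42, 1.68 and 0.744 FPKM in isotype control tumors and 1.81, 6.30, 2.78, 3.45 and 5.45 in PD-1 Ab-treated tumors. Ctsc had 74.5, 155, 151, 171 and 141 FPKM in controls and 228, 283, 222, 230 and 266 after PD-1 Ab. In Ctss the controls were at 143, 311, 351, 408 and 226 FPKM and the treated tumors at 419, 677, 468.5, 523 and 644. These groups did not overlap, nor did those of Ctsb, Ctsd and Ctsh, so 6 members had all treated tumors above all controls, as had 3.59% of all genes. Control tumor 1, the library rich in mitochondrial RNA, was the lowest control for all 10 members. Without it, Ctsb passed (0.53, adjusted p = 0.00934), and 14 of 14606 genes were called in all. The log2 fold changes of the other members ran from 0.14 for Ctsl to 1.60 for Cst7 (adjusted p of 0.0106 for Ctsc and higher for the rest). All 5 PD-1 Ab-treated tumors share an identifier run with 2 of the controls, the other 3 controls standing in another run. The summed macrophage markers were 213 to 1110 FPKM in controls and 1133 to 1608 in treated tumors, and those of T and NK cells 11.1 to 42.0 and 34.2 to 93.5. Their part in these values was not tested.

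The difference between the PD-1 Ab effects of day 15 and day 11 did not pass the test for any of the 10 genes. Nor did it for any of the 15289 genes tested (0%, limma contrast over the 4 antibody groups). A change from day 11 to day 15 within an arm was not tested. An unadjusted p under 0.05 was reached by 1 member and 1182 genes in all. That member was Ctsl, whose log2 fold change was 0.68 lower at day 15 than at day 11 (difference -0.68, 95% interval -1.29 to -0.07, adjusted p = 0.623). Without isotype control tumor 1 of day 11, the difference of Ctsl was -0.46 (adjusted p = 0.239) and the other members ran from 0.31 (Ctsz) to 1.32 (Ctsk), with no call. The median over all genes, -0.27, was at 0.02 without that library and at -0.01 with median-of-ratios scaling.

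Baseline tumors and isotype control tumors of day 15, the group also used as the control above, gave no member called by limma, while 0.628% of 14967 genes were called. An unadjusted p under 0.05 was reached by 2 members and 2647 genes. Ctsd had 162, 166 and 172 FPKM at baseline, below every isotype control tumor, with a log2 difference of -0.58 (SE 0.11, adjusted p = 0.0262). Ctsk had 2.88, 1.92 and 0.461 FPKM, also below every isotype control tumor, with a difference of -1.77 (SE 0.47, adjusted p = 0.0809). These 2 members were lower without overlap, as were 5.51% of all genes.

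In the tamoxifen experiment, 8 of the 10 genes were higher in tumors labelled PD-1cKO than in WT tumors, against 8.78% of the 15075 genes tested that were called higher and 12.6% called lower (21.3% in all). The 8 were Ctsw, Ctsd, Cst7, Ctsk, Ctsb, Ctsh, Ctss and Ctsz, and the first 5 rose by more than 2-fold, as did 4.2% of genes. The members' median log2 fold change was 1.06. The median gene was at -0.20 with the values as deposited and at -0.04 with median-of-ratios scaling, and relative to the former the members were 0.38 (Ctsl) to 1.93 (Ctsw) higher. All 10 members kept their direction under both other scalings.

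Ctsd had 201 FPKM at the lowest, 292 at the median and 371 at the highest in WT tumors, and 378, 745 and 3854 in tumors labelled PD-1cKO. It was the only member with no overlap, which 0.643% of all genes showed as higher, and its log2 fold change was 1.71 (SE 0.35, adjusted p = 0.00181). The excess was spread unevenly, with tumors 4, 8 and 7 at 3854, 2397 and 2159 FPKM and tumors 2, 9 and 3 at 378, 430.2 and 484. Ctsb had 124, 150.01 and 212 FPKM in WT tumors and 194, 346 and 1016 in those labelled PD-1cKO, and 9 of 10 exceeded every WT tumor (1.33, SE 0.24, adjusted p = 0.000834). The collagenase Ctsk had 4.71, 9.01 and 18.9 FPKM in WT tumors and 9.93, 23.4 and 99.7 in tumors labelled PD-1cKO, 7 of which exceeded every WT tumor (1.61, SE 0.37, adjusted p = 0.0031).

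Ctsw, the lymphocyte cathepsin, had 1.42, 2.91 and 4.32 FPKM in WT tumors and 2.05, 8.84 and 39.4 in tumors labelled PD-1cKO. It exceeded every WT tumor in 9 of 10, with a log2 fold change of 1.73 (SE 0.39, adjusted p = 0.00296). Cst7 had 0.567, 2.31 and 4.35 FPKM in WT tumors and 3.94, 6.55 and 10.6 in tumors labelled PD-1cKO, also above every WT tumor in 9 of 10 (1.62, SE 0.28, adjusted p = 0.000766). Ctss had 293, 421 and 583 FPKM in WT tumors and 516.5, 703 and 1552 in those labelled PD-1cKO, 7 of which exceeded every WT tumor (0.76, SE 0.18, adjusted p = 0.00374). Ctsh (0.79, adjusted p = 0.00299) and Ctsz (0.61, adjusted p = 0.00261) were above every WT tumor in 6 and 8 of 10.

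Ctsc and Ctsl were not called. Ctsc had 122, 137 and 180.2 FPKM in WT tumors and 116, 175 and 240.1 in tumors labelled PD-1cKO, 5 of which exceeded every WT tumor, with a log2 fold change of 0.21 (95% interval -0.07 to 0.49, adjusted p = 0.199). Ctsl had 177, 262 and 314 FPKM in WT tumors and 148, 284 and 881 in those labelled PD-1cKO, with a log2 fold change of 0.17 (95% interval -0.33 to 0.68, adjusted p = 0.568). The ratio of Ctsd to Ctsc within a tumor was 1.54 to 2.41 (median 2.08) in WT tumors and 2.02 to 33.2 (median 4.60) in tumors labelled PD-1cKO.

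**Figure D4:**
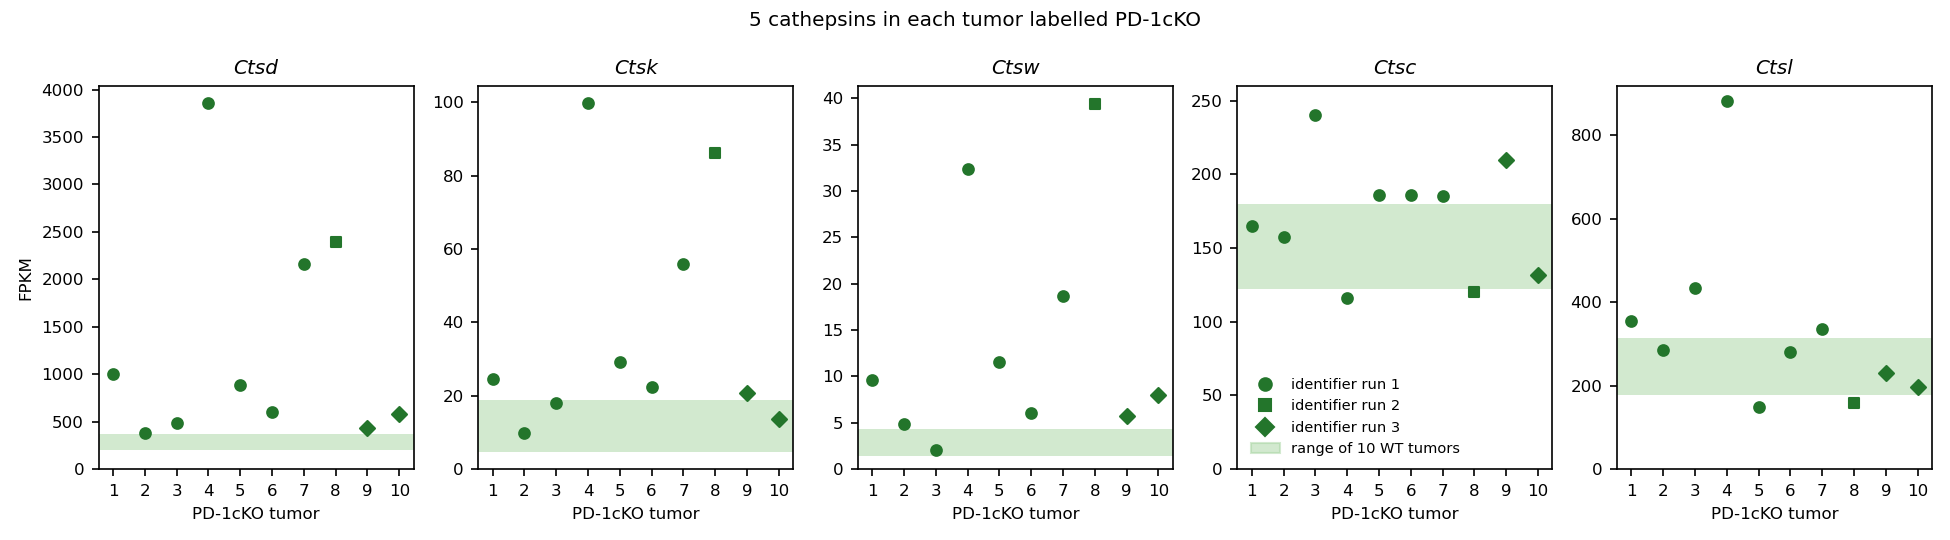
FPKM of 5 cathepsins in each of the 10 tumors labelled PD-1cKO, with the range of the 10 WT tumors as a shaded band and marker shapes for the number run of the sample identifier. Ctsd lies above the band in every tumor, Ctsk and Ctsw peak in tumors 4, 7 and 8, and Ctsc stays near the band in those same tumors (116, 185 and 120.5 FPKM).

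Several measures moved with these values. The summed fibroblast markers were 1284 to 2635 FPKM in WT tumors and 2423 to 13187 in tumors labelled PD-1cKO, highest in tumors 4, 8 and 7, and 5 of 9 were called. Macrophage markers summed to 956 to 1589 and 1384 to 4478 FPKM (6 of 12 called), T and NK cell markers to 17.3 to 59.9 and 34.3 to 172.7 (8 of 11 called), and neutrophil markers to 4.62 to 15.0 and 8.30 to 431 (5 of 7 called, 3 of the 7 having passed the filter through tumors labelled PD-1cKO alone). Of all genes, 8.78% were called higher. The part of these markers in the rises was not tested. Within the run of tumor 8 and 9 WT tumors, Ctsd was at 2397 FPKM against 201 to 371, Ctsb at 694 against 124 to 212, Ctsw at 39.4 against 1.42 to 4.32, Ctsc at 120.5 against 122 to 180.2 and Ctsl at 159 against 177 to 314. In the run of tumors 9 and 10 and 1 WT tumor, Ctsd was at 430.2 and 581 FPKM against 320, Ctsb at 227 and 275 against 168, Cst7 at 5.44 and 6.58 against 2.39, and Ctss at 713 and 516.5 against 567. With the runs as a covariate none of the 15075 genes was called, and the log2 fold changes of the 8 members were 0.43 (Ctsz, adjusted p = 0.180) to 2.66 (Ctsw, adjusted p = 0.0257). Tumors 1 to 7 share no run with a WT tumor, so the fold changes of that fit rest on tumors 8, 9 and 10. With all tumors in 1 fit, Ctsz missed the limit (adjusted p = 0.0105) and 7 members were called. Leaving out any 1 tumor kept all 8 calls, and so did leaving out tumors 4 and 8 together, a choice made after seeing the data, when Ctsd stood at 1.28 and Ctsw at 1.26. With median-of-ratios scaling as well as without those 2 tumors, Ctsc passed (0.45, adjusted p = 0.00965).

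Some members share sequence or position with other genes. Ctsd (chr7:142375911-142388038, minus strand, GRCm38) shares 32.4% of the 50-base stretches of its transcripts with Gm49369 on the same strand. Gm49369 was at most 1.91 FPKM except in tumors labelled PD-1cKO 3, 4, 7 and 8, where it had 44.0, 5.48, 4.24 and 2.66 FPKM. Tumor 3, with the most Gm49369, had 484 FPKM of Ctsd, among the lower values of its group. Tumors 4, 7 and 8 had the highest Ctsd of that group, at 3854, 2159 and 2397 FPKM. Whether shared reads entered the values of Ctsd was not tested. Ctsb (chr14:63122462-63145923, plus strand) overlaps Fdft1 on the opposite strand and shares 12.1% of its stretches with it, and whether counting used the strand is not given in the sources used here. Fdft1 had medians of 32.5 and 19.7 FPKM in control and treated tumors of day 15. Its medians were 20.2 and 8.09 in WT tumors and those labelled PD-1cKO. The part of Fdft1 in the values of Ctsb was not tested. Ctsl (chr13:64359337-64370890, minus strand) shares 26.3% with other genes, so its values carry that uncertainty.

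Between the antibody and tamoxifen experiments, the member whose log2 fold changes lay furthest apart was Ctsc. In a limma contrast over the 4 groups of day 15 and the tamoxifen experiment, no member was called, and 0.0975% of the 16404 genes tested were. An unadjusted p under 0.05 was reached by 3 members, Ctsc, Ctss and Cst7. The log2 fold change of Ctsc was higher in the antibody experiment by 1.07 (95% interval 0.61 to 1.54, adjusted p = 0.0260), which misses the limit of 0.01. That of Ctss was higher by 0.92 (0.29 to 1.54, adjusted p = 0.167) and that of Cst7 by 1.00 (SE 0.49, adjusted p = 0.313). The median over all genes was 0.23, and 0.03 with median-of-ratios scaling. For Ctsd the difference was -0.59 (95% interval -1.70 to 0.53, adjusted p = 0.587), too wide to place the larger rise in either experiment. Without PD-1 Ab-treated tumor 5, the difference of Ctsc was 1.21 (adjusted p = 0.00412) and passed, with 61 of 16465 genes called. The experiments also differ in mice, tamoxifen, tumor age and share of noncoding RNA, and these cannot be told apart.

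Other genes of the pathway came from lists of known inhibitors, substrates and lysosomal proteins. Among 10 Ctsc substrates and granule proteins, 7 were tested at day 15 and 5 rose after PD-1 Ab, where 6.69% of all genes were called higher. Gzmk rose by 4.30, Prf1 (perforin) by 3.55, Nkg7 by 2.96 and Srgn (serglycin) by 1.33 on the log2 scale, and Gzmb (granzyme B) 7.97-fold. Gzma had a log2 fold change of 1.30 (adjusted p = 0.0127) and did not pass. In tumors labelled PD-1cKO, 4 of 9 tested rose, against 8.78% of all genes, Gzmk by 2.62, Nkg7 by 1.94, Prf1 by 1.73 and Gzmb by 1.43. Gzmk passed the filter in both experiments through the group where it was high, as did Elane, Prtn3 and Mpo in the tamoxifen experiment, so no median is given for the list. The counts above include these genes. Gzmb, a granzyme of the kind that Ctsc activates, thus rose in both experiments, whereas Gzma was called in neither. Ctsc was called at day 15 and missed the limit in tumors labelled PD-1cKO, and the difference between its fold changes, given above, missed the limit too.

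Of the other inhibitors, 4 of 8 tested rose at day 15, against 6.69% of all genes. Ctla2b, a relative of cathepsin propeptides, rose by 1.54, and the serpins Serpina3g by 0.93, Serpinb9 (an inhibitor of granzyme B) by 0.88 and Serpinb6b by 0.84. In tumors labelled PD-1cKO none of 9 rose, where 8.78% of all genes were called higher and 12.6% lower, and Serpinb6a was lower, at -0.57 (adjusted p = 0.00693). The abundant general inhibitors did not pass in either experiment. Cst3 (cystatin C) was at 263 to 270.1 FPKM in culture, with log2 fold changes of 0.48 at day 15 (adjusted p = 0.0603) and 0.31 in tumors labelled PD-1cKO (adjusted p = 0.123). Cstb (stefin B) was at 212 to 219 FPKM in culture, with -0.22 (adjusted p = 0.353) and -0.33 (adjusted p = 0.0453). Cst7 was thus the cystatin that passed in both, from a level below that of Cst3 in every tumor.

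Of 14 other cathepsins, 3 were tested. Ctsa, a serine carboxypeptidase that protects lysosomal glycosidases, rose by 0.60 at day 15 and 0.67 in tumors labelled PD-1cKO. Ctsf rose by 1.46 in tumors labelled PD-1cKO and had a log2 fold change of 1.53 at day 15 (adjusted p = 0.0556). Ctso, at a median of 5.10 FPKM in culture, had log2 fold changes of 0.09 (adjusted p = 0.730) and 0.06 (adjusted p = 0.783).

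Class II genes, whose invariant chain Ctss removes, were called higher in 7 of 8 at day 15, against 6.69% of all genes, Ciita by 2.22, H2-Aa by 1.83, H2-Eb1 by 1.76 and H2-Ab1 by 1.73. In tumors labelled PD-1cKO 6 of 8 were called higher, against 8.78% of all genes, H2-Ab1 by 0.98, H2-Eb1 by 0.86, H2-Aa by 0.84 and Cd74, the invariant chain, by 0.77. Of 20 lysosomal hydrolases and their activators, 11 rose at day 15, led by Lyz2 (1.78), Psap (1.27), Man2b1 (1.18) and Gm2a (1.17), and 13 in tumors labelled PD-1cKO, led by Lyz2 (1.64), Psap (1.44), Naglu (1.18) and Gm2a (1.13). Of the 18 lysosomal membrane and sorting genes, 3 rose at day 15 (Atp6v0d2 by 2.20, Cd68 by 1.38 and M6pr by 0.43) and 7 in tumors labelled PD-1cKO (Atp6v0d2 by 2.08, Cd68 by 1.32, Tfeb by 0.94 and Grn by 0.74 among them). Their median log2 fold changes were 0.43 and 0.41, and those of the hydrolases 0.66 and 0.74, against -0.04 and -0.20 over all genes. Against culture, where 20.2% of all genes were called higher, isotype control tumors of day 15 were higher in 12 of 20 hydrolases, with 1 lower, and in 4 of 18 membrane and sorting genes, a share near that of all genes. At day 11, at baseline and in both tests of a difference, no gene of these lists was called.

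Over the 43 tumors, after the group means were subtracted, most members varied together, with lower correlations for Ctsc and Ctsl. The correlations are descriptions over libraries that share the scaling of FPKM. Ctsb and Ctsd had a Pearson r of 0.96 (0.94 without the 3 libraries that stand apart), Ctsb and Ctsh 0.90 (0.82) and Ctsh and Ctsw 0.83 (0.76). Ctsc and Ctsd had 0.08 (0.22), Ctsc and Ctsl 0.09 (0.04) and Ctsl and Ctsw 0.07 (-0.17). Ctsc was nearest to Ctss among the members, at 0.54 (0.76). It had 0.51 (0.43) with Cst7, 0.33 (0.47) with Ctsh, 0.29 (0.58) with Ctsk and 0.25 (0.43) with Ctsb. Ctsl had 0.55 (0.42) with Ctsz and 0.47 (0.29) with Ctsb. Set against summed markers, Ctsw had 0.84 (0.82) with those of T and NK cells, Ctss 0.79 (0.83) and Cst7 0.63 (0.70). These values did not single out 1 cell type. Ctsw also had 0.84 (0.79) with dendritic cell markers, and Ctss had 0.76 (0.70) with macrophage markers. Cst7 was higher with dendritic cell markers, at 0.78 (0.75), and had 0.73 (0.60) with macrophage markers. Ctsh, Ctsz and Ctsb had 0.87, 0.86 and 0.85 with macrophage markers, and Ctsb also 0.86 (0.77) with those of fibroblasts. Ctsd had 0.86 (0.77) with fibroblast, 0.81 (0.77) with neutrophil and 0.79 (0.72) with macrophage markers. Ctsl had 0.34 (0.12) with macrophage and -0.02 (-0.16) with T and NK cell markers. Ctsc had 0.46 (0.52) with macrophage, 0.34 (0.58) with T and NK cell and 0.68 (0.56) with osteoclast markers.

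**Figure D5:**
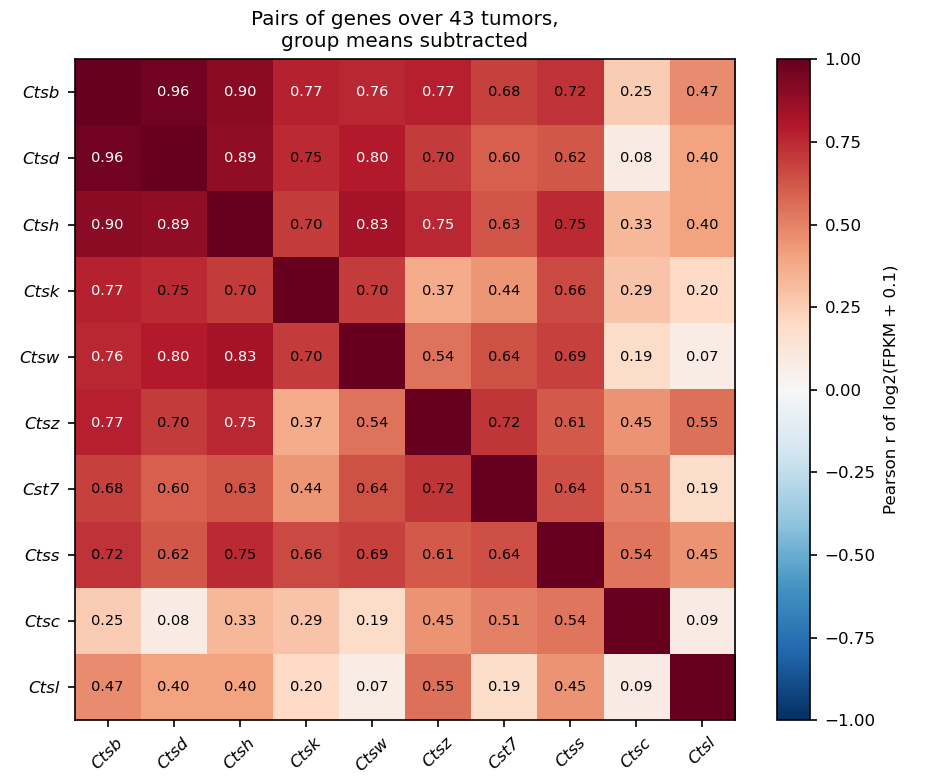
Pearson r of log2(FPKM + 0.1) for each pair of the 10 genes over 43 tumors after the group means were subtracted. Ctsb, Ctsd and Ctsh form a block with r of 0.89 to 0.96, whereas Ctsc with Ctsd (0.08) and Ctsl with Ctsw (0.07) lie near 0.

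By the same measure, the genes most like each member were found among 13228 genes whose mean over the tumors reached 1 FPKM. They were Pld3, Mmp19 and Ctsd for Ctsb (0.97, 0.96 and 0.96), and Ctsb, Pld3 and Hexa for Ctsd (0.96, 0.95 and 0.95). For Ctsc they were Gm49342, Lyn and Fcer1g (0.78, 0.76 and 0.75), and for Ctsl Spp1, Atp6v1b2 and Anxa4 (0.81, 0.75 and 0.73). Without the 3 libraries that stand apart, these values were 0.68, 0.77 and 0.73 for Ctsc and 0.79, 0.71 and 0.57 for Ctsl. Those of the other members were then 0.75 or more. Ctss was nearest to Entpd1, Ms4a7 and Sla (0.92, 0.91 and 0.86) and Ctsh to Cfp, Cd300c2 and Psap (0.94, 0.93 and 0.92). Cst7 was nearest to Sema4a and to Lag3 and Tnfrsf4, both receptors of activated T cells (0.86, 0.85 and 0.84), and Ctsw to Pstpip1, Ltb and Cd300c2 (0.90, 0.90 and 0.89). For Ctsk they were Grb10, Nynrin and Loxl2 (all at 0.91), and for Ctsz Mgat1, Necap2 and Pqlc1, all at 0.95.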

How the data were processed

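RNA of 46 samples was measured. The authors extracted RNA with RNA STAT-60, made libraries with a stranded total RNA kit after ribosomal RNA removal, read paired ends of 50 bases and mapped them to Mouse.B38 with Ensembl 86 genes in Omicsoft Array Studio 10.0.1.118, allowing 2 mismatches, per the submitters' notes and the methods. The deposited values are FPKM per gene. The authors tested counts with DESeq2, and the counts cannot be rebuilt from FPKM, in which 3743 values lie between 0 and 1e-06. Depth per sample is therefore unknown. Symbols (99.1% of identifiers) and coordinates came from GENCODE M21 (GRCm38).

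Genes whose mean reached 0.5 FPKM in one of the groups compared entered limma 3.58.1 (R 4.3.3) on log2(FPKM + 0.1), with a trend and Benjamini-Hochberg adjustment over all tested genes, and called at an adjusted p under 0.01. A fold change on this scale understates the change of low genes. Each comparison used only its own groups. The code was tested on simulated data. The members, lists and tests were chosen with earlier results of these data known. All 10 members are named, with up to 4 called genes per list and comparison, cystatins, other cathepsins and Ctsc substrates of at least 1 FPKM in a group, and the 3 genes most like each member. Alternatives were 1 FPKM added, no filter or one at 1 FPKM, scaling by median of ratios or by upper quartile, the replicate number as a block, all 43 tumors in 1 fit, identifier runs, and leaving out each replicate. Leaving out the libraries that stand apart was added after seeing the data. Python 3.11.15, numpy 2.4.6, pandas 2.3.3, scipy 1.17.1 and matplotlib 3.10.9 were used.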

Additional observations from a re-analysis of the deposited data

Results flagged for a closer look

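Within groups of 5 to 10 samples, 60 sets of values were tested for a sample far from the others, and 5 were found, where chance gives about 1 in 20. Isotype control tumor 1 of day 11, the library with 54.6% mitochondrial FPKM, had 53.2 FPKM of Ctsb, the next being 162. Isotype control tumor 2 of day 15 had 7.31 FPKM of Ctsk, the next being 5.01. Tumor 4 labelled PD-1cKO had 881 FPKM of Ctsl and 1552 of Ctss, the next being 434 and 814. PD-1 Ab-treated tumor 5 of day 15 had 3.34 FPKM of Ctsw, the next being 13.2, and it also held the lowest T and NK cell markers of its group.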

How the results depend on the processing

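Against culture, 9 members were called when any replicate was left out. For tumors labelled PD-1cKO the count was 8 each time, and 7 with all tumors in 1 fit (Ctsz lost). With the replicate block it was 5 (Ctsh, Ctsk and Ctss lost), and 1883 genes were called in all, against 3217. It was 0 with identifier runs as a covariate, where no gene of the table was called. Only tumors in a run with WT tumors informed the fold changes of that fit. In that last fit Ctsc was at -0.088 and Ctsl at -0.60. Ctsl ran from -0.0049 to 0.28 when replicates were left out. At day 15 the count ran from 4 (421 genes in all) to 9 when replicates were left out. It was 4 with the replicate block (342 genes in all), against 1243 genes in the main fit. Ctsd missed the limit with no filter, either other scaling, the block, or all tumors in 1 fit (adjusted p of 0.0101 to 0.0873), and Ctsw with no filter or the block, under which Ctsh was lost too, whereas Ctsk passed with all tumors in 1 fit. At day 11 the count ran from 0 to 1 when replicates were left out, with 14 of 14606 genes called where it was 1. It was 2 (Ctsb and Ctsc) with median-of-ratios scaling and without the mitochondrial library, where 22 of 14602 genes were called. The count for the difference between models ran from 0 to 1, with 61 of 16465 genes called where it was 1. The counts for baseline and between time points stayed at 0.

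The reversals concerned members that were not called. At baseline, leaving out replicates moved Ctsw from -0.17 to 0.78, Ctss from -0.39 to 0.16 and Ctsl from -0.12 to 0.087. Between models, Ctsh was at -0.026 with upper-quartile scaling. Leaving out replicates moved Ctsb from -0.23 to 0.073 and Ctsz from -0.092 to 0.056, and without the 2 tumors labelled PD-1cKO that stand apart Ctsb was at 0.17 (0.0062 with median-of-ratios scaling) and Ctsz at 0.031. Between time points, Ctsz was at 0.089 and 0.022 with median-of-ratios and upper-quartile scaling, and at 0.29 with the former and without the mitochondrial library. Leaving out replicates moved it from -0.37 to 0.31, and Cst7 from -0.019 to 1.02. The causes were not tested.

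Samples with the same number correlated at -0.24 to 0.18 after the group means were subtracted, so the numbers were not taken as pairs. The block changed no other call. FPKM without depth limit what can be said of members near 0.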
